A study of Mus musculus with 15 samples.

Results

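Neurog2, Atoh7 and Olig2 are basic helix-loop-helix (bHLH) transcription factors that retinal progenitors express on the way to making neurons. They were taken by gene symbol from the deposited expression tables, as 3 genes of 16116 that had a transcript in any of the tables, and each was represented by 1 transcript in all 3 tables. The data were bulk RNA-seq of CD-1 mouse retina at postnatal day 2, in 15 samples, which fall by their labels into 3 groups of 5. WT retinas were Neurog2CKO/CKO, homozygous for the conditional (floxed) Neurog2 allele, without Cre. HET retinas were Chx10Cre;Neurog2CKO/+, with Cre, 1 floxed allele and 1 unmodified allele. MUT retinas were Chx10Cre;Neurog2CKO/CKO, with the same Cre and both alleles floxed. Every group thus carried at least 1 floxed allele. The Cre driver is one of retinal progenitors, which limits the deletion to that lineage. Cre was absent from WT, so in the comparisons with WT the presence of Cre and the loss of Neurog2 cannot be told apart, whereas HET and MUT both carried it. RNA of the sex-linked genes Kdm5d and Xist also differed between the groups, HET and MUT included, as given below.

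Proneural bHLH factors pair with widely expressed E proteins and bind E-boxes, short DNA motifs of the form CANNTG, to switch on genes of neuronal differentiation. Id proteins take up the E proteins and so inhibit them, and Hes repressors downstream of Notch hold the proneural genes down. Neurog2 (neurogenin 2) marks a subset of neurogenic progenitors. Atoh7 gives progenitors the competence to form retinal ganglion cells and is known as a target of Neurog2 in the mouse retina. Olig2, best known for its role in motor neurons and oligodendrocytes, marks progenitors close to their last division in the retina. In bulk tissue, fewer cells of a type and less RNA per cell cannot be told apart.

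The sequence before the start of each gene is shown because these 3 genes are described together below and the factors they encode read E-boxes. Each is the 250 bases before the RefSeq start, from RefSeq on GRCm38.p6, on the plus strand, 5′ to 3′. Capitals mark E-boxes (CANNTG, a form that reads alike on both strands) and a TATAA on the gene strand within 40 bases of the start. The windows are chr3:127632886-127633135 for Neurog2, chr10:63099535-63099784 for Atoh7 and chr16:91225300-91225549 for Olig2.
Neurog2: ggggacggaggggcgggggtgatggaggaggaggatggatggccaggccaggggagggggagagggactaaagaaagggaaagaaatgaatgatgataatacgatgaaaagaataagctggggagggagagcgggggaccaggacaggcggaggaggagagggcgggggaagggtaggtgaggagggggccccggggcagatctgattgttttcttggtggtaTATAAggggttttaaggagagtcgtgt
Atoh7: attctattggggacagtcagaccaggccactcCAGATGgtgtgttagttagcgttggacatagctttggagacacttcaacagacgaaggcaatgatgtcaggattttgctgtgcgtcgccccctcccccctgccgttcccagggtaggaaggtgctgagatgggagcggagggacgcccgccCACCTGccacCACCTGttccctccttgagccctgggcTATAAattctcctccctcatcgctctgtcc
Olig2: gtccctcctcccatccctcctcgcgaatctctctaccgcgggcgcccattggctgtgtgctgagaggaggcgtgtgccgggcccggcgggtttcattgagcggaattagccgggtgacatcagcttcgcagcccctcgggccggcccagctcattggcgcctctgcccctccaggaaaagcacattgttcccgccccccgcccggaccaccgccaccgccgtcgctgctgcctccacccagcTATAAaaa
The Atoh7 window held 3 E-boxes. The first, CAGATG, began 218 bases before the start, and the other pair, both CACCTG, began 67 and 57 bases before it. No CANNTG lay in the Neurog2 or the Olig2 window. Over all 32851 RefSeq promoter windows of the same length, 66.2% held at least 1 CANNTG, 14.4% held the first form and 17.2% the second, counted on both strands. A TATAA on the gene strand within 40 bases of the start was present in all 3 windows, 27 bases before the start in Neurog2, 30 in Atoh7 and 8 in Olig2, against 4.23% of all windows. The motifs were chosen after the sequences had been seen, and no E-box overlapped a TATAA. GENCODE M21 places the starts of Atoh7 and Olig2 further upstream, at 63099651 and 91225457, so the last part of these windows lies within its gene models. Both CACCTG and the TATAA of Atoh7, and the TATAA of Olig2, lie in that part, downstream of the GENCODE starts.

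The genes are compact and none overlapped another annotated gene on either strand in GENCODE M21. Neurog2 (ENSMUSG00000027967.8, chromosome 3, 127633135 to 127635631, mm10, plus strand) has 2 exons, and its coding sequence lies wholly in exon 2. Olig2 (ENSMUSG00000039830.8, chromosome 16, 91225550 to 91228677, plus strand) likewise has 2 exons with the coding sequence in exon 2. Atoh7 (ENSMUSG00000036816.3, chromosome 10, 63100156 to 63100605, plus strand) has its coding sequence in 1 exon, with no intron in that transcript. The deposited Atoh7 transcript spanned 450 bases, which is the coding sequence with its stop codon, whereas the transcript of GENCODE M21 is 1629 nt long. Its level was therefore read from the coding sequence alone, and its implied errors, given below, were the widest of the 3 genes.

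Levels are given in FPKM, a fragment count divided by the length of the transcript and by the mapped fragments of the library, which the authors computed over the pooled samples of a group. Values per sample and the depth of each sample were not analysed here, so no spread between samples stands beside a level. Each group appears in 2 tables that were normalized separately.

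Neurog2 was the most abundant of the 3 genes in WT. Its level in WT was 59.2 FPKM in the table with HET and 59.5 FPKM in the table with MUT, which placed it above 89.2% and 89.3% of the genes listed. In HET it stood at 42.4 FPKM and 42.5 FPKM, and in MUT at 10.6 FPKM and 10.5 FPKM. The order was WT, then HET, then MUT, with the HET level at 71.6% and the MUT level at 17.7% of WT. Residual RNA was thus measured in MUT, and the tables do not show which part of the transcript it covers.

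Atoh7 stood at nearly the same level in WT and HET and at a lower one in MUT. Its values were 16.0 FPKM in WT in both tables, 15.2 FPKM and 15.3 FPKM in HET, and 9.94 FPKM and 9.91 FPKM in MUT. MUT was the lowest group, at 62.0% of WT and 65.0% of HET. These differences were 1.06 and 1.25 implied errors, and neither was called (Cuffdiff q = 0.999 and 0.9996). WT and HET differed by less than the implied error.

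Olig2 was highest in HET and lowest in MUT. It was listed at 13.1 FPKM and 13.2 FPKM in WT, at 14.5 FPKM in HET in both tables, and at 10.5 FPKM in MUT in both. The MUT level was 79.7% of WT and 72.5% of HET. WT and HET, neighbours in that order, again differed by less than the implied error.

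**Figure D1:**
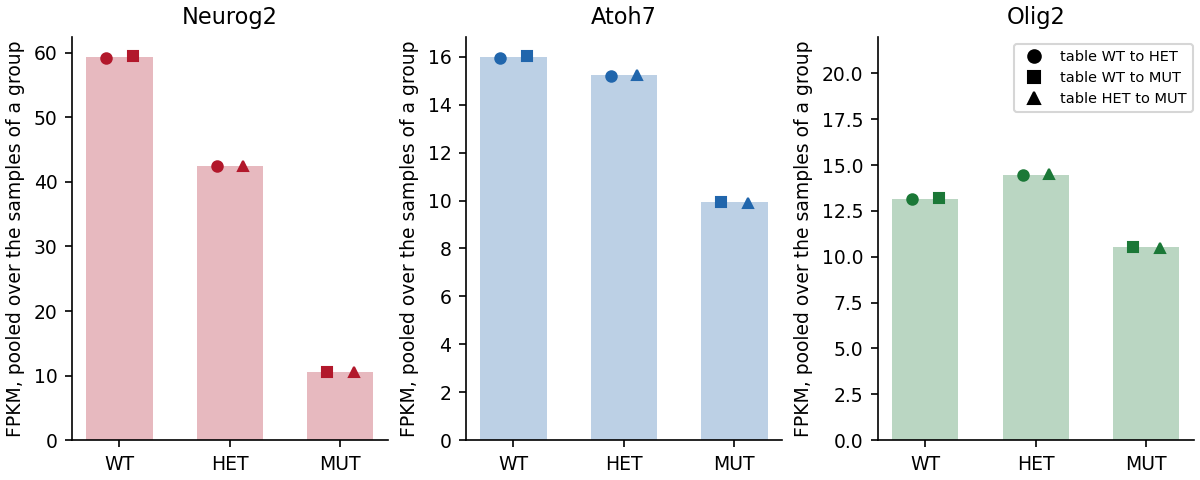
Pooled FPKM of Neurog2, Atoh7 and Olig2 in WT, HET and MUT. Each symbol is the authors' value in 1 of the 2 tables that hold the group. Bars are the mean of these 2 values and not of samples, and the y axis of each panel starts at 0. Neurog2 steps down from WT to HET to MUT. Atoh7 and Olig2 are lowest in MUT, by differences not called at a q-value under 0.05.

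The levels of the 3 genes lay close together in MUT. In WT the Neurog2 level was 3.71 times that of Atoh7 and 4.51 times that of Olig2 on the FPKM scale, which is per length. The same ratios of levels in MUT were 1.06 and 1.00. Atoh7 and Olig2 lay close to each other in every group, with a ratio of levels of 1.21 in WT, 1.05 in HET and 0.945 in MUT. Summed, the 3 genes amounted to 88.7 FPKM (WT) and 31.0 FPKM (MUT).

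The comparison of HET with MUT, in which both groups carried Cre, asks what follows the loss of the second Neurog2 copy. All 3 genes were lower in MUT. Neurog2 was 4.03-fold lower, at -2.01 ± 0.25 on the log2 scale in the authors' deposited table (± is the implied standard error, the fold change divided by Cuffdiff's test statistic; p = 5e-05, q = 0.0762). Atoh7 was 1.54-fold lower, at -0.62 ± 0.50 in the authors' deposited table (p = 0.00505, q = 0.9996). Olig2 was 1.38-fold lower, at -0.46 ± 0.27 in the authors' deposited table (p = 0.00015, q = 0.170). None of these passed a q-value under 0.05, which no transcript of this table did (0% called lower); the lowest q there was shared by Neurog2. At an unadjusted p under 0.05, Atoh7 and Olig2 were lower, as was Neurog2, whose direction its deletion sets by design. The share lower at that p was 0.471% of all 43959 transcripts. Among 3218 transcripts of genes with 1 transcript and 5 FPKM or more in either group the share was 1.93%. By p, Olig2 ranked 33 of all transcripts and 21 of these 3218, and Atoh7 ranked 123 and 47. With the Benjamini-Hochberg correction recomputed over the 3218 alone, a choice made after seeing the data, Neurog2 and Olig2 passed 0.05 (adjusted p = 0.00894 and 0.0230, from the authors' p-values) and Atoh7 did not.

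Loss of both copies against no Cre gave the same order of sizes. Neurog2 fell 5.64-fold, at -2.49 ± 0.32 on the log2 scale in the authors' deposited table (p = 5e-05, q = 0.0388). It was the 1 member called at a q-value under 0.05, where 0.0876% of all 44526 transcripts were called lower. Atoh7 was 1.61-fold lower in MUT, at -0.69 ± 0.65 in the authors' deposited table (p = 0.0199, q = 0.999), and its MUT level was more than 1 implied error below WT. Olig2 was 1.25-fold lower, at -0.33 ± 0.33 in the authors' deposited table (p = 0.0274, q = 0.999), a difference no larger than its implied error. Lower at an unadjusted p under 0.05 were Atoh7 and Olig2, as well as Neurog2, the deleted gene. The share lower at that p was 0.483% of all transcripts and 1.88% of the 3186 transcripts of genes with 1 transcript and 5 FPKM or more.

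With 1 copy lost and Cre present, Neurog2, the deleted gene, was the 1 member of 3 at an unadjusted p under 0.05. Neurog2 was 1.40-fold lower in HET, at -0.48 ± 0.28 in the authors' deposited table (p = 5e-05, q = 0.0769). Atoh7 differed by -0.07 ± 0.62 in the authors' deposited table (p = 0.812), so that the implied error leaves room for a change in either direction. Olig2 was higher by 0.14 ± 0.33 in the authors' deposited table (p = 0.347). No transcript had a q-value under 0.05 here (0% called lower), and an unadjusted p under 0.05 in the lower direction was reached by 0.288% of all 44119 transcripts and by 1.18% of the 3218 transcripts of genes with 1 transcript and 5 FPKM or more. Whether the changes of Atoh7 and Olig2 from WT to HET differ from those from WT to MUT is what the table of HET against MUT tests; the comparisons with WT share the WT samples.

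For the smaller changes, Cuffdiff's p-values are below those that the implied errors alone would give. From HET to MUT the Olig2 change was 1.75 implied errors and the Atoh7 change 1.25, and from WT to HET the Neurog2 change was 1.74. By a normal approximation none of these would pass an unadjusted p of 0.05, whereas the Neurog2 changes in the comparisons with MUT, at 7.91 and 7.89 implied errors, would. Cuffdiff's p of 5e-05 for Neurog2 was the smallest in every comparison. It was shared by 21 transcripts from WT to HET, 51 from WT to MUT and 27 from HET to MUT. That p therefore does not separate changes of 1.74 and 7.91 implied errors.

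**Figure D2:**
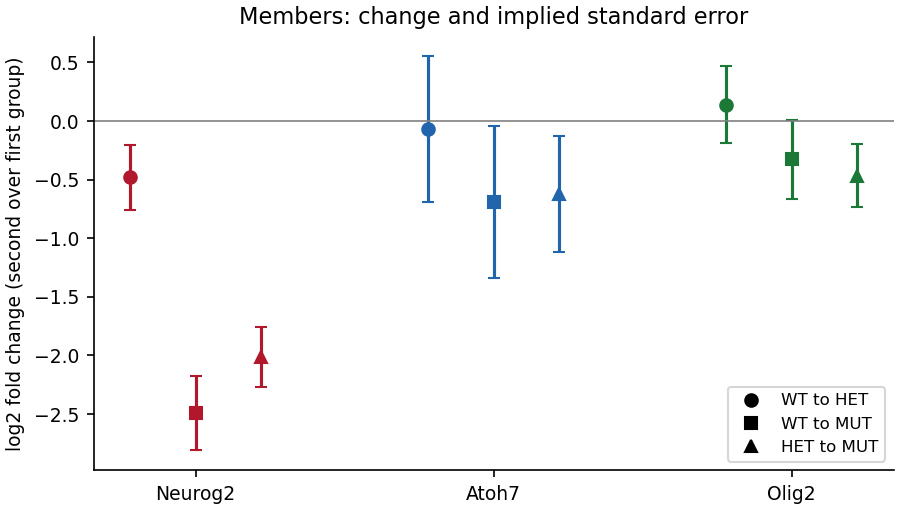
Log2 fold change of each member in the 3 comparisons, second group over first, from the authors' deposited tables. Bars are 1 implied standard error; the Neurog2 values of -2.49 and -2.01 in the comparisons with MUT lie far from 0 on this scale, and those of Atoh7 and Olig2 in the same comparisons lie between -0.69 and -0.33.

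**Figure D3:**
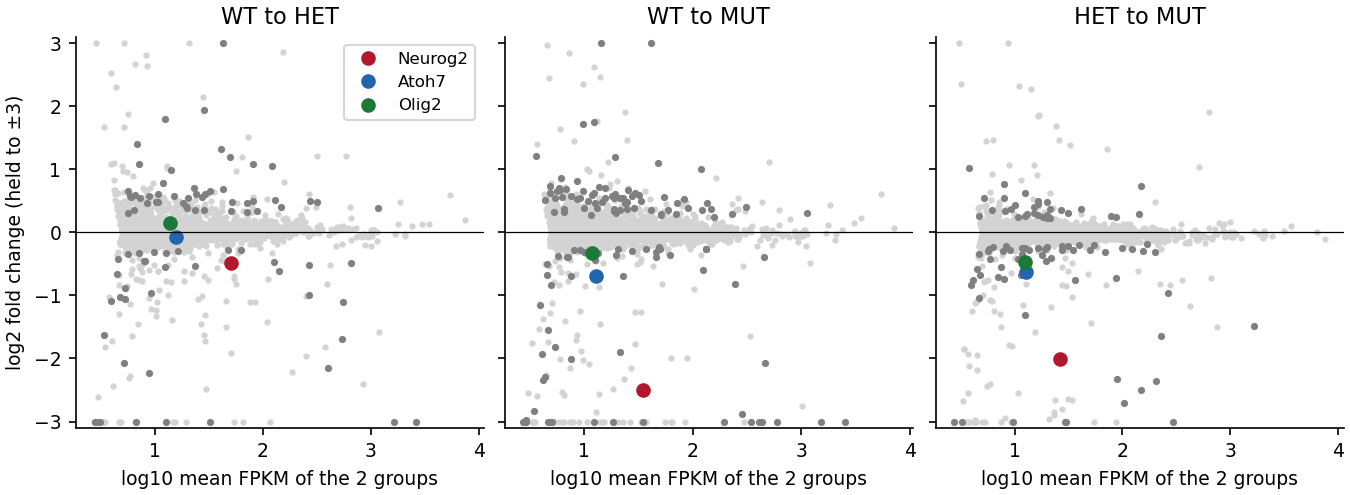
Log2 fold change against the log10 mean FPKM of the compared groups for transcripts of genes with 1 transcript and 5 FPKM or more in either group (3218, 3186 and 3218 from left to right), held to the range of the axis. Dark points have an unadjusted Cuffdiff p under 0.05; Neurog2 lies among the dark points in all 3 panels and Atoh7 and Olig2 only where MUT is compared.

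Beside these changes, other measures also differed between the pooled groups. The Y-linked gene Kdm5d reached 3.73 FPKM in WT, 5.41 FPKM in HET and 0.00117 FPKM in MUT, summed in the tables with MUT, so that its RNA was nearly absent from MUT. Xist summed to 98.8 FPKM in WT, 63.3 FPKM in HET and 135.0 FPKM in MUT. From WT to HET, 4 of 5 sex-linked genes had a log2 ratio of summed FPKM above 0, and Xist was at -0.64. None of the 5 had a transcript at an unadjusted p under 0.05 there. In all 3 comparisons, a difference in the sex of the pooled samples and the loss of Neurog2 cannot be told apart. All 8 microglia markers were above 0 in log2 ratio from WT to MUT and 7 of 8 from HET to MUT, and 5 and 2 of them had a transcript higher at an unadjusted p under 0.05, against 0.995% and 0.882% of all genes. From WT to MUT these were C1qa, C1qb and C1qc, which encode the complement component C1q, with the protease gene Ctss and the signalling adaptor gene Tyrobp, and from HET to MUT C1qa and C1qc. From WT to HET they were Ctss and Tyrobp, against 0.649% of all genes. The smallest p among them was that of C1qc from WT to MUT, at 0.72 ± 0.42 in the authors' deposited table (p = 0.0001, q = 0.0726). Over all 8 markers the summed level was 67.0 FPKM in WT, 86.3 FPKM in HET and 99.1 FPKM in MUT. The astrocyte markers, 4 measured of 5, summed to 12.3 FPKM in WT, 13.1 FPKM in HET and 16.8 FPKM in MUT. The endothelial and pericyte markers, of which 4 of 6 were measured, were summed over all 6. They came to 119.6 FPKM in WT, 124.7 FPKM in HET and 137.5 FPKM in MUT, and no marker listed was at 0. Most of this sum was Kdr, at 105.0 FPKM in WT, 107.4 FPKM in HET and 114.6 FPKM in MUT. From WT to MUT Kdr had p = 0.3555 in the authors' deposited table. Pdgfrb was at 1.20 FPKM in both WT and MUT, and Pecam1 and Cdh5 lay under 0.5 FPKM. Cldn5, an endothelial junction gene on that list, rose from WT to MUT, at 0.70 ± 0.38 in the authors' deposited table (q = 0.0388). Rgs5, a pericyte gene, was at 0.94 ± 0.58 in the authors' deposited table from WT to MUT (p = 0.00045) and at 0.60 ± 0.63 in the authors' deposited table from WT to HET (p = 0.0334). Cldn5 was at 0.45 ± 0.29 in the authors' deposited table from HET to MUT (p = 0.00055). Pax2, on the astrocyte list, had a transcript at 0.68 ± 0.62 in the authors' deposited table from HET to MUT (p = 0.0143). The part of these differences in the changes of the members was not tested.

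Progenitor genes, which define the cells the 3 members mark, were not lower as a list. Of 16, 15 had a log2 ratio above 0 from WT to MUT and 10 from HET to MUT, with medians of 0.11 and 0.03 beside medians of 0.01 and 0.00 over all genes measured. Fgf15, a growth factor of progenitors, was the 1 of them at an unadjusted p under 0.05, where 0.649% of all genes from WT to HET and 0.995% from WT to MUT had a higher transcript at that p, with 0.32 ± 0.28 from WT to HET (p = 0.0109) and 0.29 ± 0.28 from WT to MUT (p = 0.0209) in the authors' deposited table.

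Since Olig2 is also a gene of the oligodendrocyte lineage, its markers were read beside it. Of 10 markers 4 were measured at 0.5 FPKM or more, and myelin genes were low: Mag, a myelin-associated glycoprotein, was at 0.444 FPKM (WT) and 0.489 FPKM (MUT), and Mog, a myelin surface protein, at 0.462 FPKM and 0.455 FPKM. Sox10, Mobp and Nkx2-2 were on the list but had no transcript listed from WT to HET or from WT to MUT, so their levels are not known here. Pdgfra, the receptor that marks oligodendrocyte precursors and, in the retina, astrocytes, was the 1 marker on this list at an unadjusted p under 0.05, in both comparisons with MUT, where 0.995% (WT to MUT) and 0.882% (HET to MUT) of all genes had a higher transcript at that p. Its transcript with that p was higher in MUT than in WT by 0.38 ± 0.41 in the authors' deposited table (p = 0.037) and higher than in HET by 0.36 ± 0.33 in the authors' deposited table (p = 0.0151), opposite in sign to Olig2.

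Other bHLH genes of the same and neighbouring families were then read from a list of 15, of which 11 were listed in the tables and 10 were measured at a mean of 0.5 FPKM or more. From HET to MUT, 10 of 10 had a log2 ratio of summed FPKM below 0, with a median of -0.33, beside a median of 0.00 over the 14625 genes measured. Of the 10, 5 had a transcript lower at an unadjusted p under 0.05, against 1.31% of the genes measured, and none higher. These were Olig1, Neurod2, Nhlh2, Nhlh1 and Ptf1a. From WT to MUT, 9 of 10 were below 0 with a median of -0.25, and 5 were lower at that p, against 1.31% of genes (Olig1, Neurod1, Neurod2, Nhlh1 and Nhlh2). From WT to HET, 5 of 10 were below 0, the median was 0.00 and none reached that p in either direction, where 0.806% of genes had a lower and 0.649% a higher transcript. Neurod2 from WT to MUT was the 1 call at a q-value under 0.05 on this list, at -0.84 ± 0.42 in the authors' deposited table (q = 0.0388). The list was drawn up with earlier results of these data known.

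Olig1, the sister gene of Olig2 on the same chromosome, was much lower in level and had the same order of groups. It was listed at 0.751 FPKM in WT, 0.883 FPKM in HET and 0.408 FPKM in MUT. It differed by -1.11 ± 0.63 on the log2 scale from HET to MUT in the authors' deposited table (p = 0.00035), and by -0.88 ± 0.80 from WT to MUT in the authors' deposited table (p = 0.0151). Olig1 and Olig2 were thus both highest in HET and lowest in MUT by pooled level. From WT to HET, Olig1 differed by 0.24 ± 0.78 (p = 0.491) and Olig2 by 0.14 ± 0.33 (p = 0.347) in the authors' deposited table. Both differences were smaller than their implied errors, so the place of HET above WT is not settled.

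The atonal and neurogenin relatives did not fall into 1 pattern. Neurog1, the nearest relative of Neurog2, stood at 4.21 FPKM in WT, 4.83 FPKM in HET and 3.97 FPKM in MUT, with p = 0.112 from HET to MUT in the authors' deposited table. Its level in MUT was below that of Neurog2 in MUT, and the pooled values show no higher Neurog1 in MUT than in WT. Atoh8, an atonal relative, was the 1 gene on the list with a log2 ratio above 0 from WT to MUT, at 6.13 FPKM and 6.74 FPKM (p = 0.437 in the authors' deposited table).

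Differentiation factors that follow the proneural genes spanned a wide range of levels. Neurod4 and Neurod1, which are expressed in differentiating photoreceptors and other neurons, were the most abundant bHLH genes of the list, at 161 FPKM and 144 FPKM in WT and 141 FPKM and 119.5 FPKM in MUT. Of these, Neurod1 had p = 0.0478 and Neurod4 p = 0.165 from WT to MUT in the authors' deposited table. Neurod2, a factor of amacrine cells, went from 6.35 FPKM in WT through 5.33 FPKM in HET to 3.55 FPKM in MUT. Nhlh1, a bHLH gene of newborn neurons, stood at 3.12 FPKM in WT, 2.86 FPKM in HET and 1.79 FPKM in MUT. Nhlh2, its relative, was at 28.1 FPKM in WT, 29.2 FPKM in HET and 22.3 FPKM in MUT, summed over 2 transcripts. Ptf1a, which directs amacrine and horizontal cell fate, was highest in HET, as Olig2 was. It stood at 14.7 FPKM there beside 12.8 FPKM in WT and 10.9 FPKM in MUT. Its difference from WT to HET was 0.20 ± 0.39 in the authors' deposited table (p = 0.241), less than the implied error. Bhlhe22, a factor of amacrine and bipolar subtypes, was at 21.2 FPKM, 20.4 FPKM and 19.6 FPKM in WT, HET and MUT and passed no limit. Neurod6, under the level limit at 0.404 FPKM (WT) and 0.186 FPKM (MUT), had p = 0.0163 in the authors' deposited table.

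Among these 14 listed bHLH genes, members included, Neurog2 ranked 3 by level in WT and in HET and 6 in MUT, while Atoh7 ranked 6 in WT and HET and 8 in MUT. Olig2 ranked 7 in WT, 8 in HET and 7 in MUT. The share of Neurog2 in the summed FPKM of the 14 genes was 12.5% in WT, 9.88% in HET and 2.92% in MUT.

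**Figure D4:**
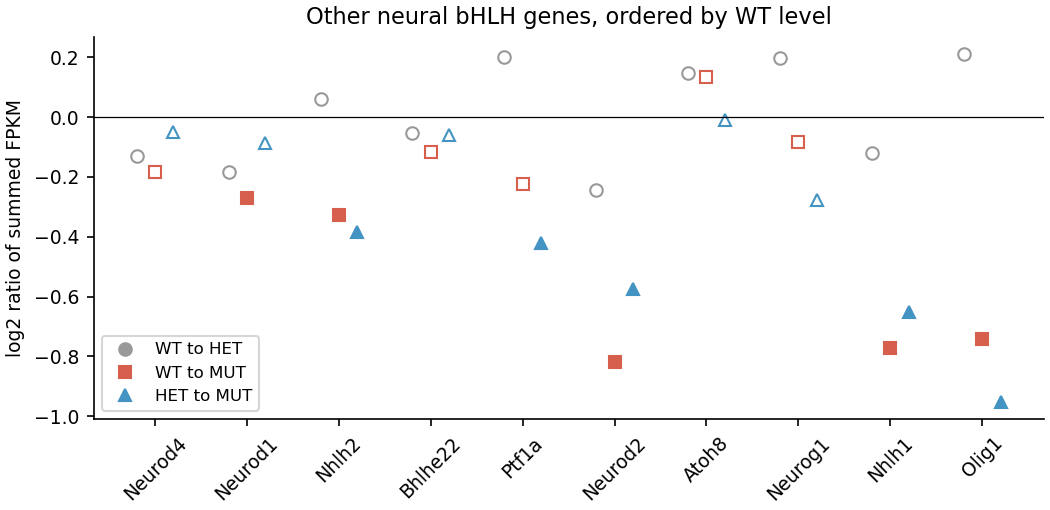
Log2 ratio of summed FPKM (pseudocount 0.1) of the 10 measured bHLH genes that are not members, ordered from left to right by WT level. Filled symbols mark genes with a transcript at an unadjusted Cuffdiff p under 0.05; all 10 triangles (HET to MUT) lie below 0, and no circle (WT to HET) is filled.

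The partners and inhibitors of the proneural factors had medians above 0 in all 3 comparisons. The E protein genes Tcf3, Tcf4 and Tcf12 had a median log2 ratio of 0.05 from WT to HET, 0.09 from WT to MUT and 0.05 from HET to MUT. None of them had a transcript at an unadjusted p under 0.05. The Id genes had a median of 0.04 from WT to HET, 0.24 from WT to MUT and 0.18 from HET to MUT. Of these, 3 of 4, 4 of 4 and 3 of 4 were above 0. Id1 reached that p from WT to MUT at 0.26 ± 0.28 in the authors' deposited table (p = 0.033), and Id2 from HET to MUT at 0.24 ± 0.22 in the authors' deposited table (p = 0.0126), against 0.995% and 0.882% of genes with a higher transcript. Neither passed a q-value under 0.05.

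Notch genes gave no transcript at an unadjusted p under 0.05 in any comparison. The list of 7 ligands and modulators, which proneural factors are known to induce, had medians of -0.06, -0.04 and 0.00 from WT to HET, WT to MUT and HET to MUT. Dll1, the ligand most closely tied to neurogenin in the embryo, had a summed level of 54.4 FPKM (WT) and 66.0 FPKM (MUT) over 6 transcripts, and Mfng, a modifier of Notch, one of 59.0 FPKM and 53.9 FPKM. Receptors and Hes/Hey repressors had a median of 0.07 from WT to MUT with 8 of 10 above 0. Hes6, an inhibitor of Hes1 that promotes neurogenesis, was the highest of them at 592 FPKM (WT) and 655 FPKM (MUT), and Hes5, a main Notch effector, was at 203 FPKM and 219 FPKM.

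Of 14 measured genes of early neurogenesis, 12 were below 0 from WT to MUT with a median of -0.11, and 1 was lower at an unadjusted p under 0.05, against 1.31% of all genes. This was Sox11, a factor of newborn neurons, which fell to 5.81 FPKM from 9.35 FPKM at -0.69 ± 0.31 in the authors' deposited table (q = 0.0388). From WT to HET it was at -0.46 ± 0.31 in the authors' deposited table (p = 0.00105). From WT to HET 11 of 14 were below 0 and 2 were lower at that p, against 0.806% of all genes. Ebf1, a factor of migrating young neurons, had a transcript at -1.90 ± 2.27 in the authors' deposited table from WT to HET (p = 0.0491). The list was less uniform from HET to MUT, with 8 of 14 below 0 and a median of -0.07. There Sox11 was at -0.23 ± 0.24 in the authors' deposited table (p = 0.0286), and Gadd45g, a stress-response gene of cells leaving the cycle, had a transcript higher by 0.29 ± 0.24 in the authors' deposited table (p = 0.00795). Insm1, a zinc finger factor of neurogenic divisions, was at 55.7 FPKM (WT) and 52.5 FPKM (MUT) (p = 0.487 in the authors' deposited table).

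Retinal ganglion cell genes, listed as downstream of Atoh7, had medians near 0 in the comparisons with MUT. Whether each gene on the list depends on Atoh7 at this age was not tested. All 15 were measured, 7 were above 0 and 8 below from WT to MUT with a median of 0.00, 11 were above 0 and 4 below from HET to MUT with a median of 0.02, and none reached an unadjusted p under 0.05 in any comparison. Pou4f2, the ganglion cell factor directly downstream of Atoh7, was at 8.48 FPKM in WT, 7.41 FPKM in HET and 8.24 FPKM in MUT (p = 0.786 from WT to MUT in the authors' deposited table). Isl1, which acts beside it, had summed levels of 22.8 FPKM (WT) and 24.4 FPKM (MUT). Sncg, a ganglion cell synuclein, was the highest of the list, at 218 FPKM and 229.6 FPKM.

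Factors of the other neurons born from these progenitors were mixed. Of 15 photoreceptor, horizontal and amacrine factors, 9 were below 0 from WT to MUT and 12 from HET to MUT, with medians of -0.08 and -0.07. Nr2e3, a rod factor, had a transcript lower from WT to MUT, as 1.31% of all genes had, at -0.34 ± 0.37 in the authors' deposited table (p = 0.0435). From HET to MUT the 1 gene at an unadjusted p under 0.05, where 1.31% of all genes had a lower transcript, was Tfap2b, an amacrine and horizontal cell factor, with a transcript at -0.25 ± 0.28 in the authors' deposited table (p = 0.0493). The horizontal cell factors Onecut1 and Lhx1 had 2.33 FPKM and 1.52 FPKM in WT and 2.36 FPKM and 1.81 FPKM in MUT. Proliferation genes had medians of 0.11 from WT to MUT and -0.01 from HET to MUT, with no transcript at that p.

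**Figure D5:**
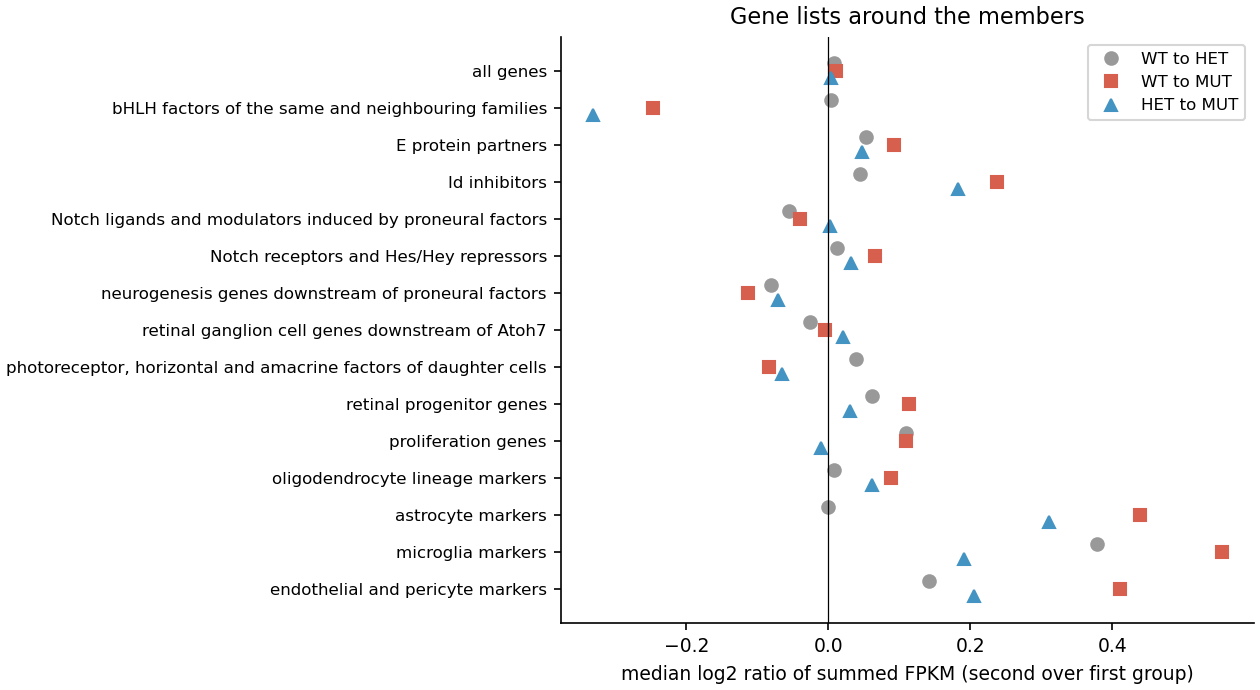
Median log2 ratio of summed FPKM (pseudocount 0.1) for the gene lists read beside the members, with all measured genes on the top line. The bHLH list lies at -0.25 (WT to MUT) and -0.33 (HET to MUT), the ganglion cell list near 0, and the microglia list at 0.55 (WT to MUT); these are descriptions of pooled groups with no test.

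The genes most like each member were found by the smallest distance between their log2 ratios in the 3 comparisons, over 12193 protein-coding genes with a mean of 1 FPKM or more. This likeness rests on 3 pooled groups that the comparisons share and is a description. No gene lay within a distance of 0.25 of Neurog2. The nearest 5 were the histone genes Hist1h4c, Hist1h4a, Hist1h2bn, Hist2h2bb and Hist1h2ak, at distances of 0.41 to 0.80, and Hist1h4c went from 6.01 FPKM in WT through 3.36 FPKM in HET to 0.841 FPKM in MUT. For Atoh7, 10 genes lay within 0.25, the nearest being 1700029I15Rik, Nhlh1, Npcd, Mrln and Eif4e3, at 0.10 to 0.21. Nhlh1, at a distance of 0.11, was the bHLH gene among them, with a log2 ratio of summed FPKM of -0.12, -0.77 and -0.65 from WT to HET, WT to MUT and HET to MUT. For Olig2, whose differences are small, 96 genes lay within 0.25. The nearest were Pou3f3, a POU-domain transcription factor of neural cells, with Aldh4a1, Heg1, Klhl35 and Sgms1, at 0.04 to 0.07.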

How the data were processed

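RNA of frozen retinas was extracted with a Zymo kit and sequenced after Illumina library preparation at a core facility, per the labels' protocols. Per the submitters' processing notes, the tools were Bowtie2, Cufflinks and Cuffdiff, with no version stated, and the build was mm10; poly(A) selection and strandedness are not given in the sources used here. The authors deposited 3 Cuffdiff tables of transcripts with FPKM values pooled by group, a log2 fold change, a test statistic (a score) and a p-value with its q-value, per the file headers. Values per sample and depth were not analysed here. Separate animals are not stated for the samples, and the spread behind the p-values may then be technical.

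Computed here with Python 3.11.15, pandas 2.3.3 and scipy 1.17.1 were implied standard errors (fold change over test statistic), FPKM summed over transcripts, log2 ratios with a pseudocount of 0.1, list medians over genes with a mean of 0.5 FPKM or more, and recomputed Benjamini-Hochberg corrections, which were tested on simulated data. Such ratios understate changes of low genes. Calls used the deposited q-value under 0.05. Gene names and types came from GENCODE M21 and promoters from RefSeq. Named genes were the members, list genes at an unadjusted p under 0.05, the 2 most abundant genes of each list (given for some lists only), the bHLH list gene by gene, and the 5 genes most like each member; further list genes were named for their known roles, outside this rule. The members and lists were chosen with earlier results of these data known. Values of some list genes are not reported here. The counts and medians of a list take in every measured gene on it, whichever way it moved. Alternatives were other thresholds, corrections, scalings and pseudocounts.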

Additional observations from a re-analysis of the deposited data

How the results depend on the processing

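No paired analysis was possible because the tables hold groups, not samples, and for the same reason no sample could be left out. Other thresholds, corrections and pseudocounts cannot turn the direction of a member. Centring and ratios through the other tables could, and no member changed direction under them. Of the 63 recomputed member values that carry a p-value, 50 kept their side of the threshold. The other 45, from centring, pseudocounts and ratios through the other tables, carry none. Neurog2 from WT to MUT (-2.49) was no longer called at a q-value under 0.01, where 0 members and 0 transcripts were. At a q-value under 0.10, Neurog2 was also called from WT to HET (-0.48, 1 member, 21 transcripts) and from HET to MUT (-2.01, 1 member, 27 transcripts). At an unadjusted p under 0.05, 3 members passed from WT to MUT (Atoh7 at -0.69, Olig2 at -0.33) and 3 from HET to MUT (Atoh7 at -0.62, Olig2 at -0.46), and 1 from WT to HET (Neurog2 at -0.48). Normal p-values from the test statistic gave 29 calls from WT to HET, none of them a member, and 26 from HET to MUT, 1 of them Neurog2 (-2.01). With the correction recomputed over transcripts of genes with 1 transcript and 5 FPKM or more, chosen after seeing the data, 18 transcripts were called from WT to HET with 1 member (Neurog2 at -0.48) and 24 from HET to MUT with 2 (Neurog2 at -2.01, Olig2 at -0.46). The cause of these differences was not tested for the normal p-values; the others follow from the threshold or the number of tests entered. The median log2 fold change of transcripts with 1 FPKM or more was 0.03, 0.03 and 0.01, so scaling moved no value by more than its implied error. Of 135 recomputed list medians, 4 differed by 0.1 or more and 3 turned sign. Depth is unknown, and Atoh7, with implied errors of 0.50 to 0.65, is the member least precisely measured.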
